A study of Rattus norvegicus with 16 samples.

Results

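Interleukin-24 (Il24) and 9 genes of interleukin-6 (IL-6) family signalling were followed in rat kidney cortex, from the ligands through their receptors to the transcription factor Stat3 and its feedback inhibitor Socs3. The 10 genes were taken by name: a probe belonged to the set when the gene name in the scanner files was Il24, Lif, Il6, Il31ra, Osmr, Il6st, Lifr, Il6r, Stat3 or Socs3. This gave 10 of the 34765 gene names on the array, carried by 20 of its 45598 probes. Of the 10 genes, 8 were well above background on at least 1 array and passed the filter on dim probes, and 2, Il6 and Il6r, were above background on no array. The genes were chosen by measured values among other things, with results of these arrays already known. Il24 had been among the 8 largest rises in each of the 4 comparisons of treated with control cortex, and Il31ra had been the largest called fall between 3 weeks and 1 week of treatment in BRCA1+/- rats, so the values of both are given as a description without a test.

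Total RNA from the cortex of male Jcl:SD (Sprague-Dawley) rats was hybridised in 1 colour to Agilent whole rat genome arrays, 16 in all. BRCA1+/- rats, which are heterozygous for a mutation of the DNA repair gene Brca1, gave 3 arrays after 1 week of ferric nitrilotriacetate (Fe-NTA), 3 arrays after 3 weeks and 2 arrays of untreated control cortex, and wild-type rats gave the same numbers. Fe-NTA is an iron chelate that injures the proximal tubule through iron-catalysed oxidation. Intraperitoneal injections began at 4 weeks of age, with 5 mg iron/kg for the first 2 injections, 7 mg iron/kg for the other 3 of week 1 and 10 mg iron/kg, 5 times a week, in weeks 2 and 3, and tissue was taken 48 h after the last injection. The study began with 17 wild-type and 18 BRCA1+/- rats. The labels call the controls normal cortex and state neither a vehicle nor an age for them. Age and treatment therefore cannot be told apart in comparisons with controls. Between 1 and 3 weeks of treatment, age and dose differ along with time. The labels do not say how the Brca1 allele was made or that each array holds a separate rat. The p-values below therefore measure the spread between arrays, which may be partly technical.

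IL-6 family cytokines bind receptor chains that pair with the shared chain gp130, encoded by Il6st. JAK kinases on these receptors then phosphorylate STAT3, which enters the nucleus and switches on its targets, and one of these, SOCS3, binds gp130 and the JAKs and shuts the signal down. IL-24 belongs to the neighbouring IL-20 group of the IL-10 family, signals through IL-20 and IL-22 receptor chains and also ends on STAT3. In injured kidney this pathway is known for acute phase gene expression in tubule cells.

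The probes that carry the results are 60-base oligonucleotides, and the first 30 bases of each are shown for the members whose signal leads the account, with the other probe of Il24 and Il6st. Positions are those in the file headers, on rat build rn4, and no gene annotation of that build was used here. The first Il24 probe, at chr13:43831514-43831573 on the minus strand, gave all of the signal for Il24, and the second, at chr13:43832042-43832101 on the same strand and 0.528 kb away, gave none.
Il24, first probe: acttcctgtgagctggctcaccatgggggc
Il24, second probe: tccctttatgagaggccattccacaggtga
Il31ra, probe used, chr2:43854422-43854481, minus strand: ataaggctttggaatctaaagtctttgaac
Osmr, probe used, chr2:56080710-56080769, minus strand: taaaaagcaaatggcacttccagggagcct
Il6st, probe used, chr2:43838549-43838608, plus strand: aagcttgcccgtgttagcgctgtagtaagt
Il6st, other probe, chr2:43833273-43833332, plus strand: actccaaagatcagatgtactcagatgcca
Socs3, probe used, chr10:107957211-107957270, minus strand: gaagatgcttgaaaaaactcaaccaaatcc

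In the RefSeq gene order of build GRCr8, Il24 on chromosome 13 is followed by Il20, Il19 and Il10, Il6st lies next to Il31ra on chromosome 2, and Osmr lies next to Lifr on the same chromosome. The 250 bases before the annotated start of each gene were searched on both strands for the STAT motif TTCNNNGAA and the AP-1 motif TGANTCA, where N is any base. A promoter was found for 9 of the 10 members. The STAT motif was present in 1 of them, Il24, and the AP-1 motif in 1, Osmr, while 7.667% and 6.34% of 33469 rat promoters of the same length hold the STAT and the AP-1 motif. The neighbouring gene Il19, which is described below because it moved with Il24, also holds a STAT match. The 3 promoters with a match are printed 5′ to 3′ with the matched letters in capitals. A match of letters is a description and not a binding site.
Il24, GRCr8 chr13:44910761-44911010, minus strand, STAT motif in capitals: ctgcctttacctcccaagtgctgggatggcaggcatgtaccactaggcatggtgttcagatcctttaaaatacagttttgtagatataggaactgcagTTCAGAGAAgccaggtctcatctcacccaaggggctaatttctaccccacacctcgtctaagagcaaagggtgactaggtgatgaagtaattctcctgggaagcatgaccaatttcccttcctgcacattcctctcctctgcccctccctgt
Il19, GRCr8 chr13:44958715-44958964, minus strand, STAT motif in capitals: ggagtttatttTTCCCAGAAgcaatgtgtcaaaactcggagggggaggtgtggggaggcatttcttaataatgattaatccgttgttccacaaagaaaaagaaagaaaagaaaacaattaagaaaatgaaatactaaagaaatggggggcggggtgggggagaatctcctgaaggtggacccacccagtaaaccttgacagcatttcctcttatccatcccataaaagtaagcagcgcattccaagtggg
Osmr, GRCr8 chr2:57688562-57688811, minus strand, AP-1 motif in capitals: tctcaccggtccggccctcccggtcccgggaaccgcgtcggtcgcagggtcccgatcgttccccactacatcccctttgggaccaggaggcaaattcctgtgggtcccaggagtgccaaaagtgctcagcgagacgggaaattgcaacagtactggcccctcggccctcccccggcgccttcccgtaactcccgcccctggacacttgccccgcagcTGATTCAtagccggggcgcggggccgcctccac

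Values are given as the scaled log2 signal: log2 of the background-subtracted signal, shifted on each array so that 0 is the 75th percentile of the probes on an array. Levels are compared between groups for 1 probe and not between probes. The share of probes well above background was 32.8% to 60.4% per array and the 75th percentile of the signal was 20.1 to 78.5, with the largest share above background on wild-type 3 week replicate 3. No spot was saturated. The arrays of a group correlated with each other at r = 0.964 or more over all tested genes, except wild-type 1 week replicate 3, which stood at 0.905 and 0.909 against the other arrays of its group. All 8 proximal tubule markers passed the filter, and at least 7 of them were above background on every array, which fits the label of kidney cortex.

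Il24, a secreted cytokine, was not well above background on any of the 4 control arrays and was above it on all 12 treated arrays. In BRCA1+/- cortex its scaled log2 signal was 2.92, 1.66 and 2.26 after 1 week and 3.12, 2.82 and 3.27 after 3 weeks, against -4.22 and -3.04 in controls. In wild-type cortex it was 3.72, 2.84 and 2.36 after 1 week and 3.14, 1.90 and 1.81 after 3 weeks, against -3.29 and -3.72 in controls. Every treated array lay above every control array, and the treated groups overlapped each other. Since the controls were below background, only a lower bound of the fold can be given: the treated mean was set against a control mean in which each array counts at its own detection limit, or at the probe's own signal where that was higher. Il24 was at least 46.7-fold higher after 1 week and at least 80.6-fold higher after 3 weeks in BRCA1+/- cortex, and at least 30.5-fold and at least 18.9-fold higher at the same times in wild-type cortex. These and the other bounds below hold only for the processing used here. Over 12 other settings of the processing and fit, the log2 difference of Il24 ran from 2.28 to 7.14 and from 2.79 to 7.49 at these times in BRCA1+/- cortex. In wild-type cortex it ran from 2.97 to 7.36 and from 2.31 to 6.55.

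**Figure D1:**
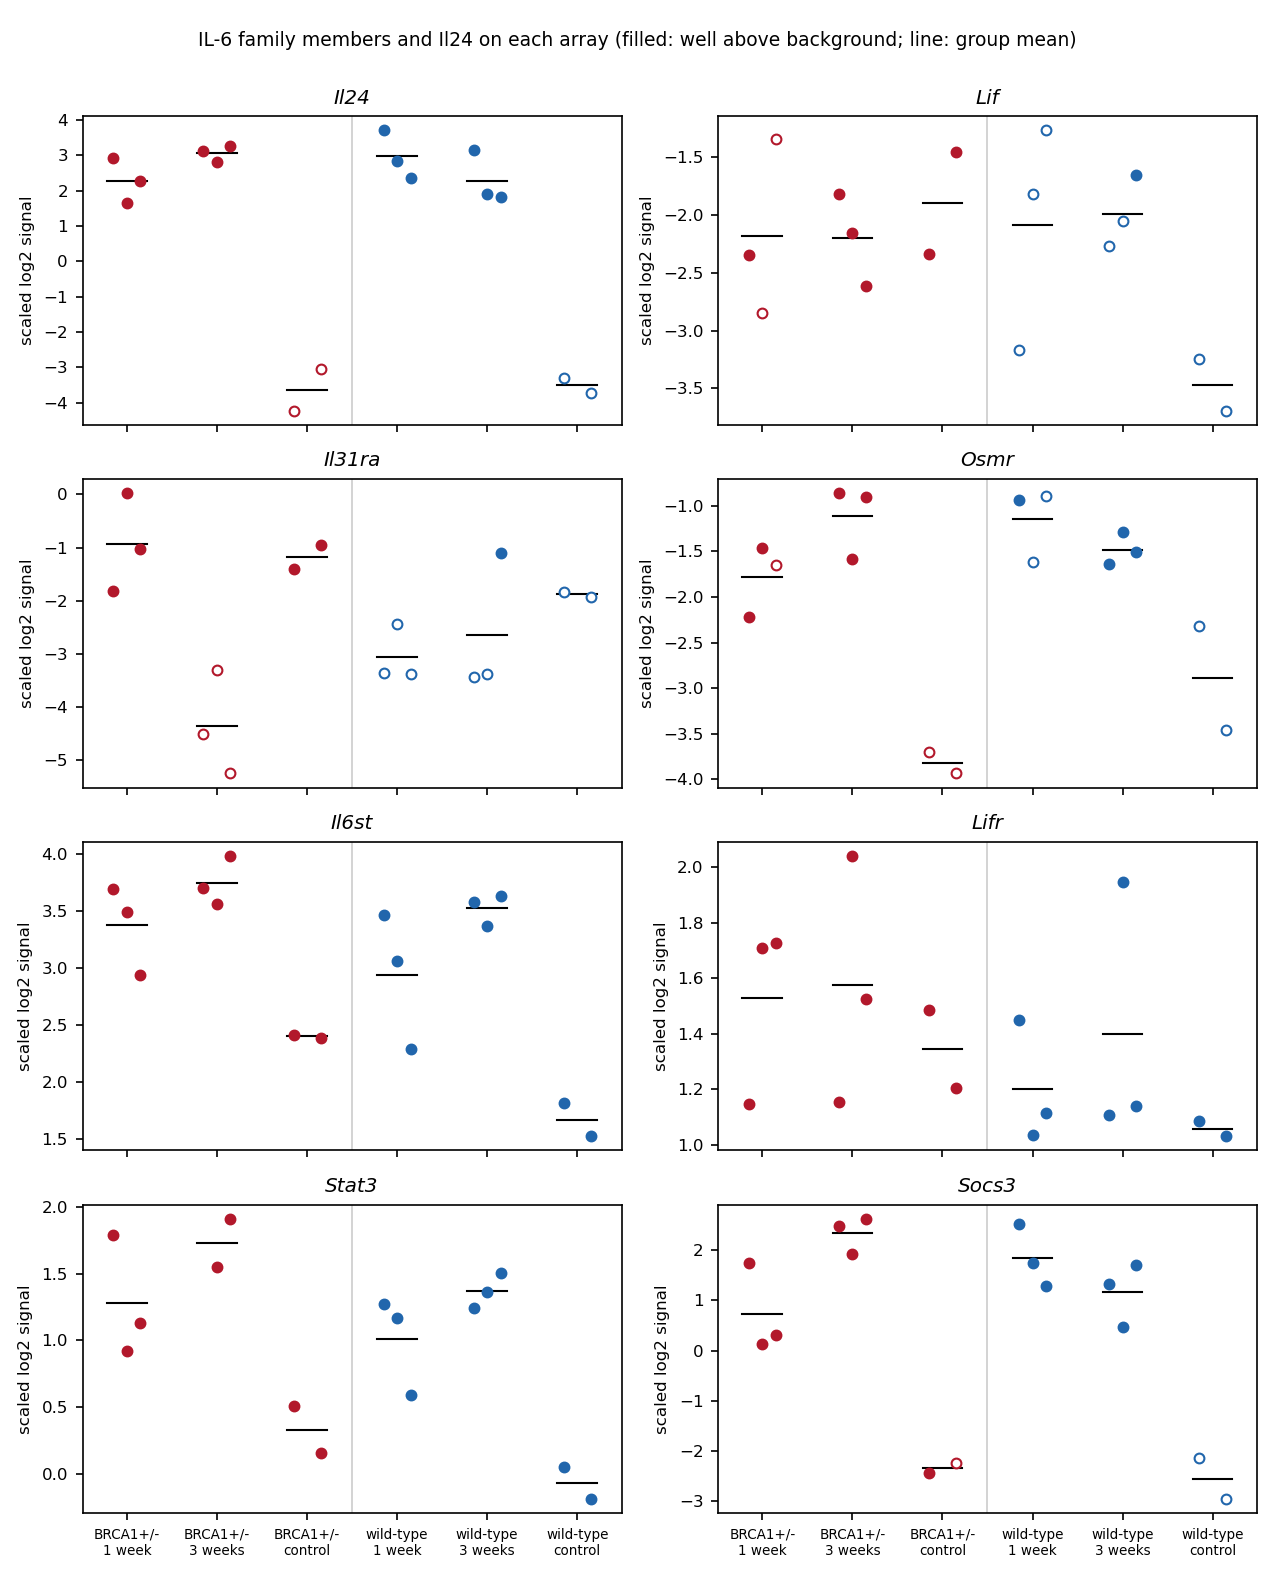
Scaled log2 signal (vertical axes) of the 8 measured members on each of the 16 arrays, by group, with BRCA1+/- arrays in red and wild-type arrays in blue; filled points were well above background, open points were not, and lines are group means. Il24 and Socs3 lie above every control array in all 4 treated groups, and Il31ra was above background in BRCA1+/- controls and at 1 week but on none of the 3 BRCA1+/- 3 week arrays.

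Neither of the other ligands in the set passed a test. Il6, the founding cytokine of the family, was above background on 0 of 16 arrays with its single probe, so a change in it was not measurable here. Lif, leukaemia inhibitory factor, gave -2.35, -2.85 and -1.35 after 1 week and -1.82, -2.15 and -2.62 after 3 weeks in BRCA1+/- cortex, against -2.34 and -1.46 in controls. In wild-type cortex Lif gave -3.17, -1.82 and -1.27 after 1 week and -2.27, -2.06 and -1.66 after 3 weeks, against -3.24 and -3.69 in controls. The BRCA1+/- groups overlapped, and all treated wild-type arrays lay above both controls, but only 1 of those 8 wild-type arrays was above background. Another Lif probe, above background on 6 arrays, did not pass the filter, and its wild-type groups overlapped. It gave -2.32, -1.56 and -0.99 after 1 week and -3.62, -1.96 and -1.17 after 3 weeks in wild-type cortex, against -2.17 and -3.52 in controls. Lif did not pass the test in any comparison: the log2 difference was -0.28 ± 0.52 (SE; limma adjusted p = 0.80) at 1 week and -0.30 ± 0.52 (adjusted p = 0.70) at 3 weeks in BRCA1+/- cortex, and 1.47 ± 0.52 (adjusted p = 0.070) at 3 weeks in wild-type cortex. With quantile scaling, with only the groups compared and with the slide as a block, the wild-type difference passed the test, at adjusted p = 0.0072, 0.014 and 0.046, and when dim values were raised to the detection limit it was -0.035 (adjusted p = 0.97).

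Among the receptor chains, Osmr, the oncostatin M receptor that pairs with gp130 and also with the IL-31 receptor chain, rose in each of the 3 tested comparisons with controls. Osmr passed the filter on dim probes only through the 3 week groups, so its 3 week calls are not independent of the filter. In BRCA1+/- cortex it gave -2.22, -1.46 and -1.65 after 1 week and -0.86, -1.58 and -0.90 after 3 weeks, against -3.70 and -3.94 in controls. Wild-type cortex gave -0.93, -1.62 and -0.89 after 1 week and -1.63, -1.29 and -1.51 after 3 weeks, against -2.32 and -3.46 in controls. Treated and control arrays did not overlap in either genotype, and no control array was above background. At 1 week the probe used was above background on 2 of 3 BRCA1+/- arrays and on 1 of 3 wild-type arrays. The other Osmr probe was above background on no array. At 3 weeks Osmr was at least 4.41-fold higher in BRCA1+/- cortex (limma adjusted p = 0.00030) and at least 1.40-fold higher in wild-type cortex (adjusted p = 0.019). By the same measure it was 2.79-fold higher at 1 week in BRCA1+/- cortex (limma adjusted p = 0.0039). At 1 week in wild-type cortex, where no test is given, it was 1.76-fold higher. The 1 week means include arrays below background, so the 1 week folds are not firm bounds. The wild-type 3 week call was lost without wild-type control replicate 2 (adjusted p = 0.28) and without wild-type 3 week replicate 2 (adjusted p = 0.066), with no filter on dim probes (adjusted p = 0.084), with dim values at the detection limit (adjusted p = 0.41) and with normexp and quantile normalization (adjusted p = 0.18). The last of these also ended the BRCA1+/- 1 week call (adjusted p = 0.47). Over the 12 other settings the log2 difference of Osmr at 3 weeks ran from 0.36 to 2.79 in BRCA1+/- cortex and from 0.24 to 2.00 in wild-type cortex.

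Il6st, which encodes gp130, was above background on all 16 arrays. In BRCA1+/- cortex it gave 3.70, 3.49 and 2.94 after 1 week and 3.70, 3.57 and 3.99 after 3 weeks, against 2.42 and 2.39 in controls. For wild-type cortex the values were 3.47, 3.06 and 2.29 after 1 week and 3.58, 3.37 and 3.63 after 3 weeks, against 1.81 and 1.53 in controls. No treated array fell to the level of its controls. Il6st rose at 3 weeks, 2.54-fold in BRCA1+/- cortex (log2 1.35 ± 0.32 SE, limma adjusted p = 0.013) and 3.63-fold in wild-type cortex (log2 1.86 ± 0.32, adjusted p = 0.0018). At 1 week in BRCA1+/- cortex the difference was 0.97 ± 0.32 and did not pass (adjusted p = 0.082), though it passed with normexp and quantile normalization (adjusted p = 0.019) and with quantile scaling (adjusted p = 0.039). The BRCA1+/- 3 week call was lost without BRCA1+/- control replicate 1 (adjusted p = 0.082), without control replicate 2 (adjusted p = 0.087), without 3 week replicate 3 (adjusted p = 0.053) and with no filter on dim probes (adjusted p = 0.063). The other Il6st probe changed less, by 0.75 ± 0.23 at 3 weeks and 0.66 ± 0.23 at 1 week in BRCA1+/- cortex and by 0.52 ± 0.23 at 3 weeks in wild-type cortex. Adjusted over all probes that passed the filter, its limma p was 0.041, 0.099 and 0.15 in the same order.

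Il31ra, the IL-31 receptor chain, was lower at 3 weeks in BRCA1+/- cortex and near or below background on most wild-type arrays. BRCA1+/- cortex gave -1.82, 0.03 and -1.02 after 1 week and -4.51, -3.31 and -5.24 after 3 weeks, against -1.40 and -0.95 in controls. Wild-type cortex gave -3.37, -2.44 and -3.37 after 1 week and -3.43, -3.38 and -1.11 after 3 weeks, against -1.84 and -1.92 in controls. It was above background on all 3 BRCA1+/- arrays at 1 week, on 0 of 3 at 3 weeks and on both controls, and in wild-type cortex on 1 array, 3 week replicate 3, the one with the largest share of probes above background. In BRCA1+/- cortex its 3 week level was at least 4.93-fold lower than at 1 week and at least 4.19-fold lower than in controls, with no overlap of arrays. The share of all genes lower without overlap is not given here. Il31ra passed the filter only through the BRCA1+/- control and 1 week groups, so its low 3 week level is not independent of the filter. Over the 12 other settings these log2 differences ran from -3.42 to -0.57 and from -3.85 to -0.45, so the bounds do not hold for all of them. The second Il31ra probe was above background on 1 array in all.

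Lifr, the receptor of leukaemia inhibitory factor, was above background on all 16 arrays, with group means between 1.06 and 1.57. Its log2 difference was 0.18 ± 0.33 at 1 week and 0.23 ± 0.33 at 3 weeks in BRCA1+/- cortex and 0.34 ± 0.33 at 3 weeks in wild-type cortex (SE; limma adjusted p = 0.80, 0.63 and 0.53). The 95% intervals ran from -0.51 to 0.88, from -0.46 to 0.92 and from -0.35 to 1.03 in the same order. Another Lifr probe that passed the filter, also above background on all 16 arrays, had the opposite sign. It gave -0.20 ± 0.37, -0.20 ± 0.37 and -0.10 ± 0.37 (SE; limma p adjusted over probes = 0.80, 0.73 and 0.89). Il6r, the IL-6 receptor itself, was above background on no array with either of its 2 probes.

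Stat3, the transcription factor on which these receptors converge, was measured by 1 probe, whose spot on BRCA1+/- 3 week replicate 1 was marked as an outlier and left out. Stat3 gave, in BRCA1+/- cortex, 1.79, 0.92 and 1.13 after 1 week and 1.55 and 1.91 after 3 weeks, against 0.51 and 0.16 in controls. For wild-type cortex the values were 1.27, 1.17 and 0.59 after 1 week and 1.24, 1.36 and 1.50 after 3 weeks, against 0.05 and -0.19 in controls. All treated arrays lay above the controls of their genotype. Stat3 mRNA rose 2.64-fold at 3 weeks in BRCA1+/- cortex (log2 1.40 ± 0.33, limma adjusted p = 0.014) and 2.71-fold at 3 weeks in wild-type cortex (log2 1.44 ± 0.30, adjusted p = 0.0069), while 0.95 ± 0.30 at 1 week in BRCA1+/- cortex did not pass (adjusted p = 0.076). The BRCA1+/- 3 week call was lost without BRCA1+/- control replicate 2 (adjusted p = 0.11), without 3 week replicate 3 (adjusted p = 0.094) and with no filter on dim probes (adjusted p = 0.071), and the wild-type call without wild-type control replicate 2 (adjusted p = 0.082). The arrays measure mRNA and not the phosphorylation that activates STAT3.

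Socs3, the feedback inhibitor, changed most among the members that were tested. Socs3 gave, in BRCA1+/- cortex, 1.75, 0.13 and 0.31 after 1 week and 2.48, 1.92 and 2.62 after 3 weeks, against -2.44 and -2.24 in controls. In wild-type cortex it gave 2.51, 1.75 and 1.28 after 1 week and 1.33, 0.47 and 1.70 after 3 weeks, against -2.14 and -2.96 in controls. The lowest treated array stood more than 2 log2 units above the highest control array in each genotype. Socs3 rose 8.42-fold at 1 week (log2 3.07 ± 0.50, limma adjusted p = 0.0020) and 25.7-fold at 3 weeks (log2 4.68 ± 0.50, adjusted p = 4.6e-05) in BRCA1+/- cortex, where 1 of 2 control arrays was above background, and at least 8.73-fold at 3 weeks in wild-type cortex (adjusted p = 0.00034). Its other probe gave log2 differences of 2.56 ± 0.39, 3.38 ± 0.39 and 2.30 ± 0.39 in the same order, with limma p adjusted over probes of 0.0013, 9.2e-05 and 0.0015. After normexp and quantile normalization the 1 week difference was 0.99 and missed the threshold (adjusted p = 0.059). Over the 12 other settings the 3 week difference ran from 1.97 to 5.07 in BRCA1+/- cortex and from 1.26 to 3.86 in wild-type cortex.

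**Figure D2:**
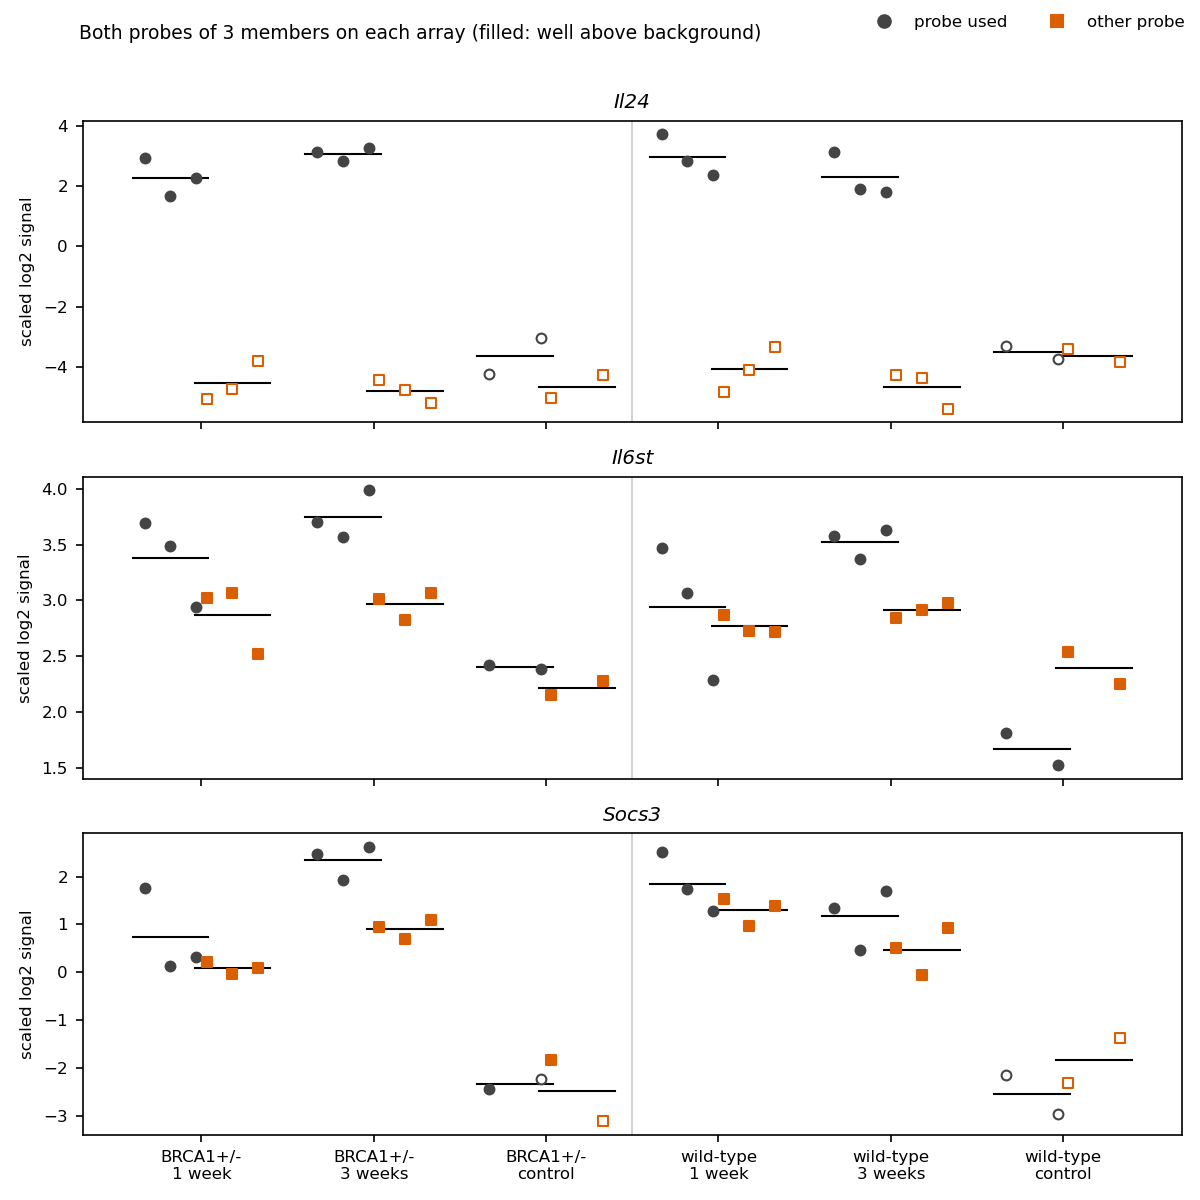
Scaled log2 signal of both probes of Il24, Il6st and Socs3 on each array, by group; circles are the probe used, squares the other probe, filled where well above background, with lines at the group means. The other Il24 probe stayed below background on all 16 arrays, the other Il6st probe moved less than the probe used, and both Socs3 probes were higher in every treated group than in its controls.

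Counted together over the 6 members with a test, 2 rose at 1 week in BRCA1+/- cortex (Osmr and Socs3), where 4.27% of 15761 genes rose. At 3 weeks 4 rose in BRCA1+/- cortex, where 9.39% of genes rose, and the same 4, Osmr, Il6st, Stat3 and Socs3, rose in wild-type cortex, where 8.84% rose. Osmr and Socs3 passed the filter only through treated groups, so their part in these counts is not independent of the filter. The number that rose was 2 in BRCA1+/- cortex at 3 weeks without control replicate 2 or without 3 week replicate 3, and 2 in wild-type cortex without control replicate 2. No member fell in these 3 comparisons, where 3.2%, 6.43% and 5.53% of all genes fell (1 week and 3 weeks in BRCA1+/-, 3 weeks in wild-type cortex). All treated arrays lay above all control arrays for 4 of these 6 members at 1 week and 4 at 3 weeks in BRCA1+/- cortex, against 21.2% and 32.3% of all genes, and for 5 at 1 week and 6 at 3 weeks in wild-type cortex, against 20.3% and 28.4%. At 1 week in wild-type cortex, where no test is given, the log2 differences of the members above background in both groups were 1.27 for Il6st, 0.14 for Lifr and 1.08 for Stat3. Socs3 was at least 14.0-fold higher there, and Lif was above background on none of the 5 arrays.

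**Figure D3:**
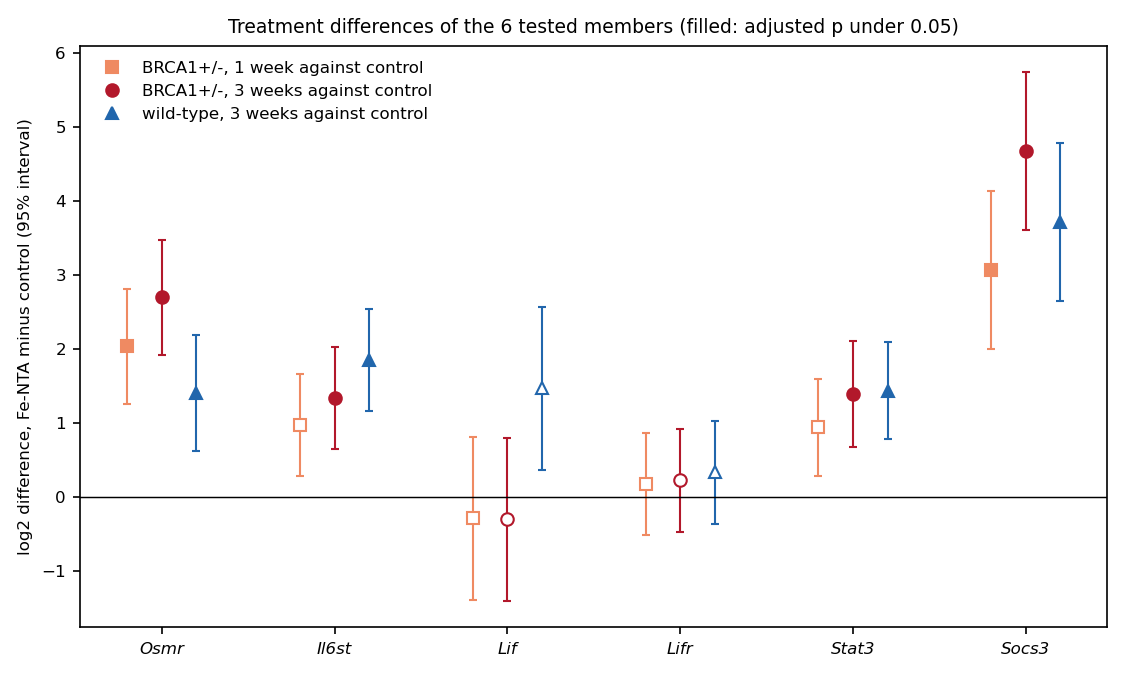
Log2 difference of treated minus control cortex (vertical axis) with its 95% interval for the 6 members with a test, in 3 comparisons; filled symbols have an adjusted p under 0.05. The symbols of Socs3 and Osmr are filled in all 3 comparisons, those of Il6st and Stat3 at 3 weeks in both genotypes, and those of Lif and Lifr in none.

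Markers of some other cell types moved along with these genes, and those of others did not. The mean scaled log2 signal of the 6 tested macrophage markers, of 8 listed, was 0.71 to 1.18 at 1 week and 1.29 to 1.84 at 3 weeks in BRCA1+/- cortex, against -0.83 to -0.45 in controls. In wild-type cortex it was 0.36 to 1.67 at 1 week and 1.25 to 1.79 at 3 weeks, against -0.51 to -0.38 in controls. The fibroblast markers, 6 of 6 tested, were also higher in treated cortex, at 2.59 to 3.35 and 3.00 to 3.65 at 1 and 3 weeks in BRCA1+/- cortex, against 1.66 to 1.81 in controls, and at 2.39 to 3.47 and 2.63 to 3.42 in wild-type cortex, against 1.39 to 1.44 in controls. Of the macrophage markers 4 were called up at 1 week and 5 at 3 weeks in BRCA1+/- cortex, and 4 at 3 weeks in wild-type cortex. Of the fibroblast markers 2, 5 and 5 were called up in the same order, where 4.27%, 9.39% and 8.84% of all genes rose. The mean of the 8 proximal tubule markers was lower at 4.20 to 5.30 and 4.56 to 5.87 at 1 and 3 weeks in BRCA1+/- cortex, against 6.17 to 6.55 in controls. In wild-type cortex the mean was 2.57 to 3.91 and 5.32 to 5.99, against 6.56 to 6.82 in controls. Not all 8 fell: 3 were called down at 1 week and 2 at 3 weeks in BRCA1+/- cortex, where 3.2% and 6.43% of all genes fell. At 3 weeks in wild-type cortex 2 were called down and 1 up, where 5.53% of all genes fell and 8.84% rose. Of 7 T cell markers, Cd3d and Cd4 were above background on all 16 arrays, Cd3g on 10, Cd247 on 5 and Cd3e on 3, and Cd8a and Cd2 on none. Of 5 neutrophil markers, S100a9 was above background on 12 arrays, Mpo on 5 and Elane on 1, and S100a8 and Mmp8 on none. Of 4 mast cell markers, Fcer1a was above background on all 16 arrays and Cma1 on 1, and Cpa3 and Tpsab1 on none. In the 3 tested comparisons with controls, 0 of the tested T cell, neutrophil, mast cell or endothelial markers were called. Of 3 tested erythroid markers 3 were called down at 1 week and 1 at 3 weeks in BRCA1+/- cortex, and 2 at 3 weeks in wild-type cortex. In the same order 3.2%, 6.43% and 5.53% of all genes fell. The part of cell composition in the changes above was not tested, and in whole cortex more cells of a type and more RNA per cell cannot be told apart.

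Between genotypes and times no member passed the test. Of 15761 genes, 0% were called between BRCA1+/- and wild-type controls, 0.571% between genotypes at 1 week, 0% between genotypes at 3 weeks, 8.29% between 3 weeks and 1 week in wild-type cortex and 0.266% between 3 weeks and 1 week in BRCA1+/- cortex. Between the genotypes limma gave an unadjusted p under 0.05 for 748 genes in controls and 905 at 3 weeks. The interaction of genotype with treatment called 0 genes at 1 week and 0 at 3 weeks, with limma unadjusted p under 0.05 for 1202 and 759. In controls limma gave Lif an unadjusted p of 0.014 (adjusted p = 0.92) between BRCA1+/- and wild-type cortex and Osmr one of 0.035 (adjusted p = 1.00). Lif was below background in wild-type controls and Osmr in the controls of both genotypes, so no difference is given. The log2 difference of Socs3 between BRCA1+/- and wild-type cortex was -1.12 ± 0.45 at 1 week (limma unadjusted p = 0.025, adjusted p = 0.31) and 1.17 ± 0.45 at 3 weeks (unadjusted p = 0.019, adjusted p = 0.82). From 1 week to 3 weeks Socs3 differed by 1.61 ± 0.45 in BRCA1+/- cortex (unadjusted p = 0.0026, adjusted p = 0.15), with no overlap of the arrays (13% of genes were higher without overlap), and by -0.68 ± 0.45 in wild-type cortex (adjusted p = 0.38). Without BRCA1+/- 1 week replicate 1 the first of these was 2.12 and passed (adjusted p = 0.047).

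The other genes of the pathway were counted by list, and the lists were written with results of these arrays known. Among 24 known STAT3 targets, 17 passed the filter. Of these 8 rose at 1 week in BRCA1+/- cortex, where 4.27% of all genes rose. At 3 weeks 9 rose in BRCA1+/- cortex, where 9.39% rose, and 9 in wild-type cortex, where 8.84% rose. In the same order 0 targets fell, against 3.2%, 6.43% and 5.53% of all genes. The medians of the targets' log2 differences were 1.33, 1.53 and 2.02, against -0.04, 0.01 and -0.02 over all genes. Lcn2, a lipocalin released by injured tubules, gave 5.06, 2.81 and 4.16 at 1 week and 5.26, 4.65 and 4.02 at 3 weeks in BRCA1+/- cortex, against -1.59 and -1.85 in controls. Its log2 rise was 5.73 ± 0.57 at 1 week and 6.36 ± 0.57 at 3 weeks in BRCA1+/- cortex (limma adjusted p = 6.4e-05 and 8.5e-06), and it was at least 46.5-fold higher at 3 weeks in wild-type cortex. Fgb, the fibrinogen beta chain, rose by 3.15 ± 0.49 at 1 week and 3.05 ± 0.49 at 3 weeks in BRCA1+/- cortex (adjusted p = 0.0014 and 0.00097). The other targets that rose in all 3 comparisons were Bcl3, Myc, Timp1, Fga, Lbp and Icam1. A2m, an acute phase protease inhibitor, rose at 3 weeks in both genotypes, at least 16.1-fold in BRCA1+/- and at least 2.40-fold in wild-type cortex, and it was the 1 target that rose between 1 and 3 weeks in BRCA1+/- cortex (log2 3.46 ± 0.59, adjusted p = 0.021). A2m passed the filter only through the 3 week groups, so these calls are not independent of the filter. On BRCA1+/- 1 week replicate 3 it lay below the detection limit (-3.32 against -1.85), so 3.46 is not a firm size. Between 1 and 3 weeks in wild-type cortex Fga, the fibrinogen alpha chain, fell by 1.36 ± 0.34 (limma adjusted p = 0.024). Birc5, the apoptosis inhibitor survivin, was called lower there (limma adjusted p = 0.041). Birc5 passed the filter only through wild-type 1 week, so this call is not independent of the filter. On wild-type 3 week replicates 1 and 2 it lay below the detection limit (-3.06 against -2.78 and -2.61 against -2.24), so the size of its fall is not given. Bcl2l1, Mcl1, Ccnd1, Cebpb, Cebpd, Birc5, Bcl6 and Nfil3 did not pass in any of the 3 comparisons with controls.

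Of 9 other IL-6 family ligands and subunits, 6 passed the filter. Of these 1 rose at 1 week in BRCA1+/- cortex, where 4.27% of all genes rose. At 3 weeks in BRCA1+/- cortex 3 rose and 1 fell, where 9.39% of all genes rose and 6.43% fell. In wild-type cortex 3 rose at 3 weeks, where 8.84% rose. Cntf, the ciliary neurotrophic factor, gave 2.47, 1.43 and 2.00 at 1 week and 3.18, 2.93 and 3.86 at 3 weeks in BRCA1+/- cortex, against -0.94 and -0.75 in controls. It rose by 2.81 ± 0.41 and 4.17 ± 0.41 at these times (limma adjusted p = 0.0010 and 2.0e-05) and by 3.47 ± 0.41 at 3 weeks in wild-type cortex (adjusted p = 0.00014). Ebi3, the shared subunit of IL-27 and IL-35, rose at 3 weeks in both genotypes, by 1.33 ± 0.38 in BRCA1+/- cortex (adjusted p = 0.029) and at least 1.73-fold in wild-type cortex (adjusted p = 0.0076), and not at 1 week (1.16 ± 0.38, adjusted p = 0.079). Osm, the ligand of Osmr, was called lower in BRCA1+/- cortex at 3 weeks (limma adjusted p = 0.018), with -2.87, -4.62 and -2.46 there, against -1.57 and -1.43 in controls. It was above background on 1 of these 3 arrays and on both controls, so the size of the fall is not given. The other receptors of the family, Il11ra1 and Cntfr, did not pass in any comparison.

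The IL-20 group of cytokines, to which Il24 belongs, was mostly dim: 2 of 10 listed genes passed the filter. Il19, next but one to Il24 on chromosome 13, gave -0.46, -2.09 and -2.29 at 1 week and 1.09, 0.61 and 0.55 at 3 weeks in BRCA1+/- cortex, against -4.90 and -4.12 in controls. In wild-type cortex it gave 0.64, -0.86 and -1.44 at 1 week and 0.12, -0.75 and -0.38 at 3 weeks, against -3.25 and -3.69 in controls. At 3 weeks it was at least 16.2-fold higher in BRCA1+/- cortex (limma adjusted p = 6.0e-05) and at least 3.09-fold higher in wild-type cortex (adjusted p = 0.0026). At 1 week in BRCA1+/- cortex it was 3.15-fold higher by the same measure (limma adjusted p = 0.0077). Only 2 of those 3 arrays were above background, so this is not a firm bound. Il19 passed the filter only through the 3 week groups, so its 3 week calls are not independent of the filter. Every treated array lay above every control array, as for Il24. Il20, which lies between them, was above background on 4 of 16 arrays, and Il10 on 2. Of the receptor chains for IL-24, Il20rb and Il22ra1 were above background on no array and Il20ra on 2. Il10rb, a chain shared with IL-22 and IL-10, did not pass in any comparison.

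Among JAK kinases and other STATs, 8 of 10 genes passed the filter. None was called at 1 week in BRCA1+/- cortex, where Stat6 and Stat2 had the smallest p (0.75 ± 0.29, limma unadjusted p = 0.020, adjusted p = 0.13, and 0.77 ± 0.31, unadjusted p = 0.026, adjusted p = 0.15). At 3 weeks 4 of the 8 rose in BRCA1+/- cortex, where 9.39% of all genes rose, and 3 rose in wild-type cortex, where 8.84% rose, and 0 fell. Jak3, Stat2 and Stat6 rose in both genotypes, by 1.60, 1.09 and 1.01 in BRCA1+/- cortex (adjusted p = 0.026, 0.029 and 0.029) and by 1.89, 1.07 and 1.12 in wild-type cortex (adjusted p = 0.011, 0.033 and 0.018). Of 13 other negative regulators 10 passed the filter and 0 were called in any comparison, among them Ptpn1 (0.76 ± 0.42 at 1 week in BRCA1+/- cortex, limma adjusted p = 0.31) and Socs6 (0.58 ± 0.35, adjusted p = 0.35). Socs1 was above background on no array.

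**Figure D4:**
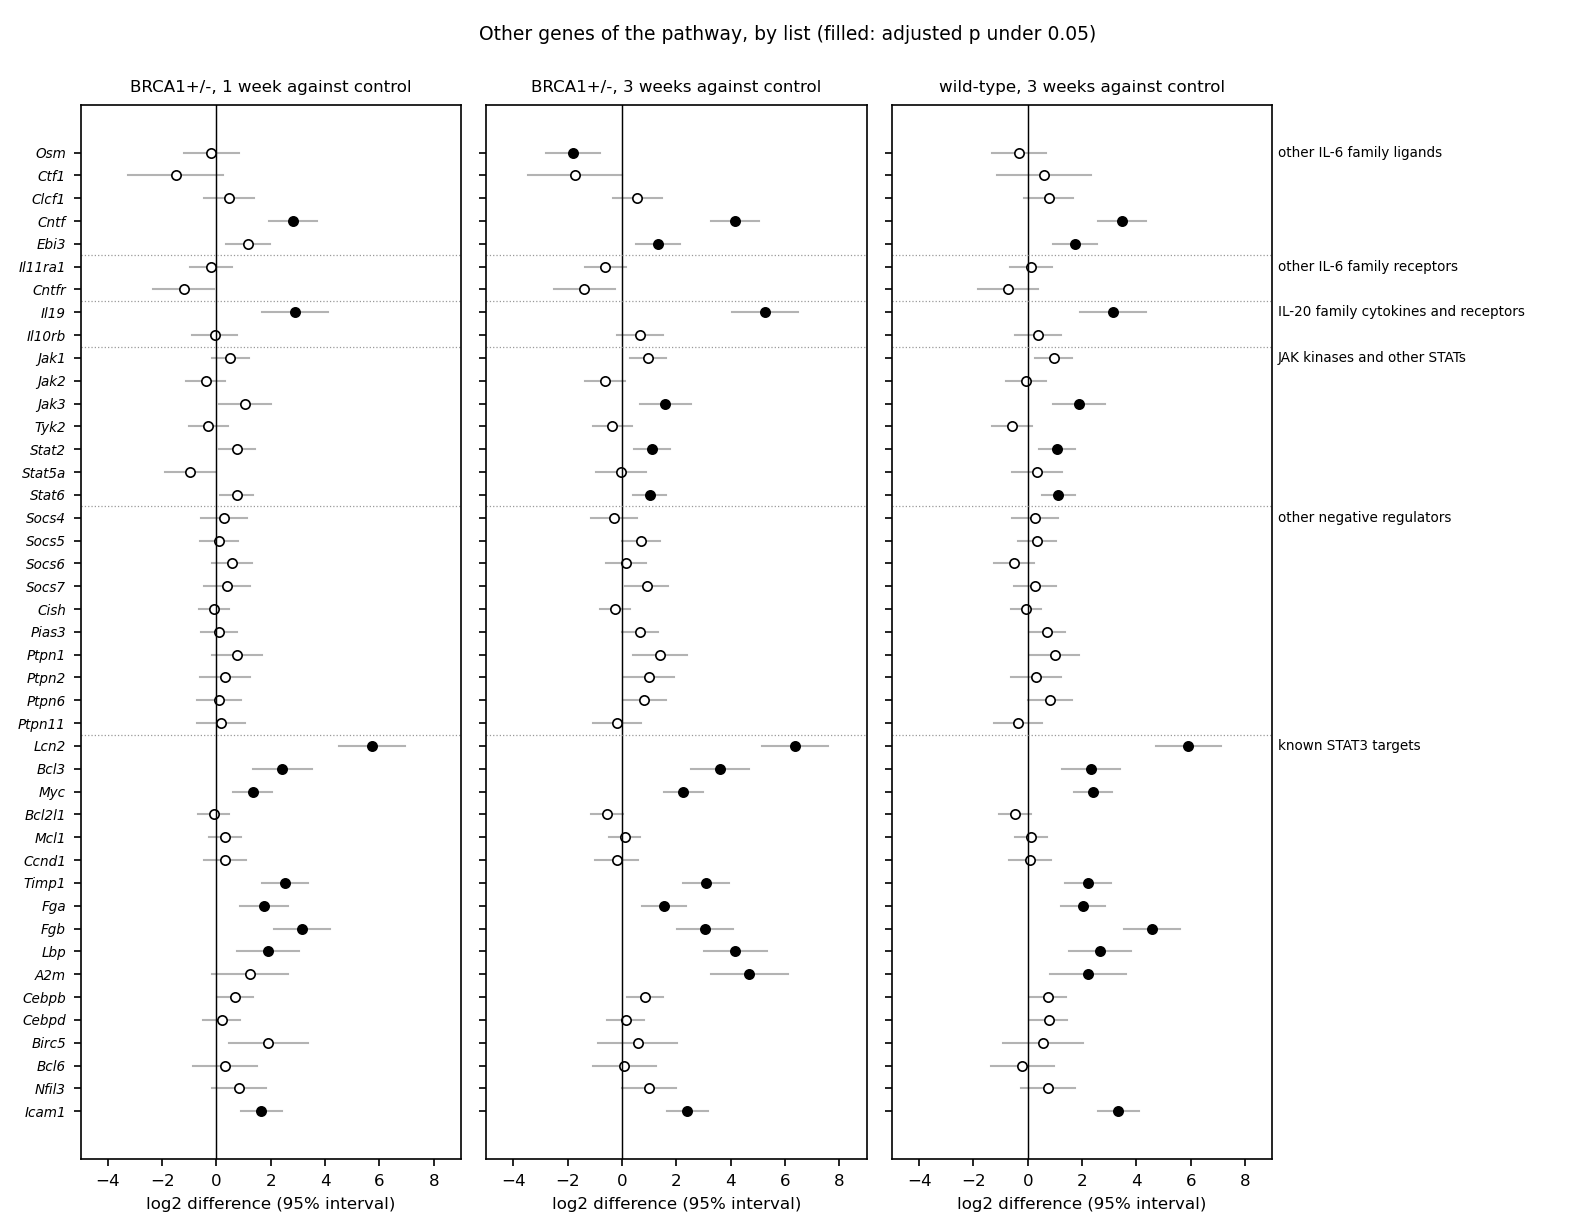
Log2 difference of treated minus control cortex (horizontal axes) with its 95% interval for genes of 6 pathway lists that passed the filter, in BRCA1+/- cortex at 1 week and 3 weeks and in wild-type cortex at 3 weeks; filled points have an adjusted p under 0.05. Cntf and Il19 are filled in all 3 panels, and no point is filled among the other negative regulators.

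The genes whose scaled log2 signal followed Il24 most closely over the 16 arrays, among 12117 genes with a plain symbol, were Spp1 (Pearson r = 0.988), Epdr1 (0.986), Adra1d (0.986), Lcn2 (0.984) and Gpnmb (0.983). Those nearest to Socs3 were Zfp365 (r = 0.980), Parp14 (0.979), Adra1d (0.977), Atf3 (0.977) and Gbp2 (0.974). The arrays share the split into 12 treated and 4 control arrays, which lie far apart in all of these genes, so r is a description of that pattern. Spp1, which encodes the secreted matrix protein osteopontin, rose by 6.39 ± 0.43 at 1 week and 7.72 ± 0.43 at 3 weeks in BRCA1+/- cortex (limma adjusted p = 8.6e-07 and 7.8e-08). Within the set, r with Il24 was 0.963 for Socs3, 0.880 for Osmr, 0.851 for Stat3, 0.826 for Il6st, 0.309 for Lif, 0.229 for Lifr and -0.489 for Il31ra.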

How the data were processed

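Per the submitters' processing notes the arrays were read with Agilent Feature Extraction 10.7. Per the file headers, a scanner file gives for each spot a background-subtracted intensity (the processed signal), together with other columns that mark control spots, outliers and detection. The log2 values in the authors' deposited table equal the scaled log2 signal used here within 0.01 for at least 99.6% of probes on each array, and how the authors scaled them is not stated in their labels.

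Control and outlier spots were dropped and the spots of a probe averaged. The log2 signal was taken relative to each array's 75th percentile. A probe was kept if it had 2 or more values in all groups and was well above background throughout at least 1 group, and a gene is its brightest kept probe, which left 15761 genes. A gene that is dim in controls was thus kept only through its treated groups, and its call up against controls is not independent of the filter. Likewise, where a gene was kept only through the higher of the groups compared, the call between them is not independent of the filter. limma 3.58.1 in R 4.3.3 was fitted with 1 mean per group over the 16 arrays, with p-values adjusted over all genes (Benjamini-Hochberg, two-sided). Called means an adjusted p under 0.05. In data simulated for 1 week against control in BRCA1+/- cortex, over 15761 genes, 12% of log2 changes of 1, 58% of 2, 94% of 3 and 98% of 4 were recovered. There 50 genes were changed at each size, with normal noise independent between genes and no detection floor. On the arrays 1178 genes were called in this comparison, so the shares may differ from those of the real test. The number of arrays limits the precision.

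The members and lists were chosen with earlier results of these data known. Il24 and Il31ra have no test because they were picked on these arrays, and wild-type 1 week against control has none for any gene. Genes named beside the members are, in each list, the 2 with the smallest p at 1 week in BRCA1+/- cortex, those in counts of 5 or fewer, and the 5 nearest to Il24 and to Socs3 over the arrays. The STAT3 targets and undetected genes named beyond these were chosen after their values were seen. Motifs were searched in RefSeq promoters of build GRCr8. Of 45598 probes 21222 were matched to the reference by accession. Arrays lie on 2 slides, each holding every group. Same-numbered arrays of different groups did not deviate together (r from -0.34 to 0.44, median 0.03, over 36 pairs). Some genes and 1 probe sequence of the lists are not reported here by name, though the counts of a list include its genes.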

Additional observations from a re-analysis of the deposited data

Results flagged for a closer look

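For 2 tested members the arrays of the 2 genotypes moved in opposite directions between 1 week and 3 weeks. Every BRCA1+/- array at 3 weeks lay above the 1 week mean of its genotype, and every wild-type array at 3 weeks lay below its own. The share of all genes that meet this rule was not counted. For Socs3 the log2 difference of 3 weeks minus 1 week was 1.61 in BRCA1+/- cortex and -0.68 in wild-type cortex, and for Osmr it was 0.66 and -0.33. The test of the difference itself was added after the values were seen. It gave 2.29 ± 0.63 for Socs3 (SE; limma unadjusted p = 0.0025, adjusted p = 0.17) and 0.99 ± 0.46 for Osmr (unadjusted p = 0.049, adjusted p = 0.50), so neither passed the adjustment over all genes, of which 0.114% were called. Over the left-out arrays the Socs3 difference ran from 1.94 to 2.80 and that of Osmr from 0.77 to 1.23. At 1 week Osmr was above background on only 2 of 3 BRCA1+/- and 1 of 3 wild-type arrays, and it passed the filter only through the 3 week groups. Its wild-type difference of 3 weeks minus 1 week was 0.11 within slide 2. The pattern is not particular to these members. The group means of Il24, for which no test is given, ran the same way (0.79 in BRCA1+/- cortex and -0.69 in wild-type cortex), as did those of genes named above for following Il24 or Socs3 over the arrays, such as Atf3 (1.18 and -0.59), Gbp2 (1.01 and -0.49), Gpnmb (0.81 and -0.50) and Lcn2 (0.63 and -0.82), while those of Spp1 did not (1.33 and 0.14).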

How the results depend on the processing

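The limits of these results are 2 or 3 arrays a group, controls that are below background for Il24, Osmr and, in part, Socs3, and members measured by 1 usable probe. Besides leaving out arrays, 12 other settings were run, 1 of them (only probes with a value on all arrays) chosen after seeing the data. The number of the 6 tested members called at 3 weeks in wild-type cortex was 4, and 1 within slide 1 and 0 within slide 2; over left-out arrays it ran from 2 to 4. At 1 week in BRCA1+/- cortex it was 2, and 1 with normexp and quantile normalization, 1 within slide 1 and 0 within slide 2, with 2 throughout for left-out arrays. At 3 weeks in BRCA1+/- cortex it was 4, and 2 with no filter on dim probes, 1 within slide 1 and 2 within slide 2; over left-out arrays it ran from 2 to 4. The within-slide fits hold fewer arrays. Between 3 weeks and 1 week in BRCA1+/- cortex the count was 0, and 0 to 1 over left-out arrays. With the replicate number as a block the counts were 4, 2 and 4 in the same order and no count of members called changed, and the numbers do not pair the arrays. The median log2 difference of the 8 members at 1 week in wild-type cortex, 1.33, was 0.40 with normexp and quantile normalization and 1.14 to 1.51 over left-out arrays; it includes Il24 and members below background in controls, so it says nothing about the set. Against controls, signs turned only for differences that were not called or not tested. Of the untested ones, Il31ra was 0.74 within slide 2 at 3 weeks in wild-type cortex (-0.76), and -0.43 within slide 1 and -0.25 without 1 week replicate 2 at 1 week in BRCA1+/- cortex (0.23). At 1 week in wild-type cortex Lif (1.38) was -0.066 once dim values were raised to the detection limit, while Lifr (0.14) was -0.17 as the mean of all probes and -0.053 within slide 2. Lif at 3 weeks in wild-type cortex was -0.035 with dim values at the detection limit. Lif in BRCA1+/- cortex was 0.16 without control replicate 2 and 0.051 without 1 week replicate 2 at 1 week (-0.72 to 0.16 over left-out arrays), and 0.021 with no filter and 0.14 without control replicate 2 at 3 weeks (-0.74 to 0.14). Lifr in BRCA1+/- cortex was -0.34 within slide 1 and -0.010 as the mean of all probes at 1 week, and -0.0038 without 3 week replicate 2 at 3 weeks (to 0.44 over left-out arrays). Osmr between 3 weeks and 1 week in wild-type cortex was 0.11 within slide 2. Where a value moved the cause was not tested. Of all genes, 1178 at 1 week and 2493 at 3 weeks in BRCA1+/- cortex and 2264 at 3 weeks in wild-type cortex were called. With no filter on dim probes, which tests 34148 genes, the counts were 438, 1049 and 953, within slide 1 they were 120, 248 and 285, and within slide 2 they were 27, 281 and 3. With only the groups compared they were 1084, 3799 and 3662. Over left-out arrays they ran from 368 to 1090, from 801 to 1951 and from 759 to 1554, lowest without BRCA1+/- control replicate 1 (1 and 3 weeks) and without wild-type control replicate 2. Over all settings, left-out arrays included, the count between 3 weeks and 1 week was 0 to 1993 in wild-type cortex (1307) and 0 to 83 in BRCA1+/- cortex (42), between genotypes 0 to 2 in controls (0), 0 to 162 at 1 week (90) and 0 to 2 at 3 weeks (0), and for time by genotype 0 to 92 (18), with the reported count in parentheses.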
